A study of Mus musculus with 12 samples.

Results

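The genes described are 10 secreted members of the TGF-beta superfamily: the ligands Tgfb1, Tgfb2, Tgfb3, Bmp2, Bmp4, Bmp7 and Bmp8b, the activin subunits Inhba and Inhbb, and the antagonist Fst. They were chosen by name, and all 10 were found among the 38924 genes of the count files. All 10 also entered the tests, which ran over 16953 genes. The libraries came from C57BL/6 mice carrying the ROSA mTmG reporter, which switches from a red to a green membrane protein after Cre acts, together with either Ucp1-iCre or Myf5-Cre. The 6 groups of 2 libraries were Ucp1 GFP-positive and Myf5 GFP-positive mammary cells, Ucp1 GFP-negative and Myf5 GFP-negative mammary cells, and GFP-positive brown adipocytes (BAT) of the Ucp1 and of the Myf5 line. Mammary cells were sorted as Lin-, CD24+ and CD29hi at day 10 of lactation and are labelled myoepithelial, the contractile basal cells of the mammary epithelium. The brown adipocytes came from virgin females 8 weeks old, so tissue, lactation state and age cannot be told apart in any comparison of mammary cells with BAT. Because the reporter stays on in descendants, GFP marks cells that carry Cre now or descend from cells that did, and not the present activity of Ucp1 or Myf5. The title of the series asks whether brown adipocytes can take on a basal mammary phenotype, and the groups compare traced with untraced mammary cells and with brown fat. Whether the 2 libraries of a group stem from different mice is not stated in the labels. A p-value here therefore reflects only how far these libraries scatter, which may be technical.

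TGF-beta superfamily ligands are made as precursors, cleaved, and secreted as dimers that bring together type I and type II receptor kinases. TGF-betas and activins signal mainly through Smad2 and Smad3, and BMPs mainly through Smad1, Smad5 and Smad9. The beta A subunit of activin is encoded by Inhba and the beta B subunit by Inhbb, and follistatin, the product of Fst, binds activins and blocks them. TGF-betas restrain growth of mammary epithelium and promote matrix production, and Bmp8b is known from mouse brown fat, where it raises the response to adrenergic stimulation.

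Library totals ran from 11027738 to 32956480 counts. On these unscaled totals 3 counts, the upper 95% limit when none is seen, stand for 0.0910 to 0.272 counts-per-million (CPM). This floor covers counting error only. Levels below are CPM scaled by TMM, over effective totals of 8191568 to 41194933 counts, so their floors differ from these. They are given with replicate 1 before replicate 2, and per kilobase of exon where genes are compared with each other. The Ucp1 GFP-positive mammary libraries stood apart, with 10909 and 10560 genes that had a count, against 13761 to 19794 in the other 10 libraries. Keratin genes Krt5, Krt14 and Krt17 were at 0 in all 4 BAT libraries. The 8 myoepithelial markers summed to 1284 to 3457 CPM in GFP-positive mammary libraries, against 7972 to 14780 CPM in GFP-negative ones. The 6 endothelial markers summed to 3690 and 5338 CPM in Ucp1 GFP-positive mammary libraries, above their myoepithelial sums of 1284 and 2849 CPM. In each other mammary library the endothelial sum lay below the myoepithelial sum. It was 815 and 1077 CPM in Myf5 GFP-positive, 3705 and 3604 CPM in Ucp1 GFP-negative and 3151 and 3357 CPM in Myf5 GFP-negative libraries. The transcript of Ucp1 itself was at 0 in all 4 GFP-positive mammary libraries, at 950.1 and 3312 CPM in Ucp1 BAT and at 12570 and 16440 CPM in Myf5 BAT. GFP-negative mammary cells had a few Ucp1 reads, at 0.541 and 0.550 CPM in the Ucp1 line and 2.71 and 0.486 CPM in the Myf5 line. Myf5 was read in 1 of 2 Myf5 GFP-positive mammary libraries, at 12 CPM, and in no BAT library. Myf5 GFP-positive mammary libraries carried fibroblast markers at a summed 16670 and 8812 CPM (5 of 5 detected), against 754 and 432 CPM in Myf5 GFP-negative libraries.

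The promoter windows of 3 members are printed because their genes had contrasting patterns. Bmp8b had reads only in the 4 brown adipocyte libraries, Inhba was highest in Myf5 GFP-positive mammary cells, and Inhbb had reads in all 12 libraries. Each run is the 250 bases before the RefSeq start (GRCm38.p6), 5′ to 3′ on the gene's strand, at chr4:123104911-123105160 (plus strand) for Bmp8b, chr13:16011601-16011850 (plus strand) for Inhba and chr1:119422249-119422498 (minus strand) for Inhbb. Capitals mark a TATAAA box or a GGGCGG box, which reads CCGCCC when it lies on the other strand.
Bmp8b: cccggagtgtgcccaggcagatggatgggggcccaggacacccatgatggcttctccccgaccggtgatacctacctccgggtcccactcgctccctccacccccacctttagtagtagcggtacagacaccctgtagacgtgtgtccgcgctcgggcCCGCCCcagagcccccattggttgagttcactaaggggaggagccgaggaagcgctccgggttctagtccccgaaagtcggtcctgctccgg
Inhba: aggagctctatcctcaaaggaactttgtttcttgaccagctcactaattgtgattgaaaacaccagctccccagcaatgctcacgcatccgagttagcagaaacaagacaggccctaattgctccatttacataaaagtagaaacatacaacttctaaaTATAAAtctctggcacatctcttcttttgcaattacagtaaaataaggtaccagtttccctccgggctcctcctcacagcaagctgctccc
Inhbb: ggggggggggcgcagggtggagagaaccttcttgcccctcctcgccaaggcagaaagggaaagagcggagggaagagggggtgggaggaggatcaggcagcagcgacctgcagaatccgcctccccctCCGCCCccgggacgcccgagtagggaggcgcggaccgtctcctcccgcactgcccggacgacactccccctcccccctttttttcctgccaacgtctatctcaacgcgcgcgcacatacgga
Inhba held 1 TATAAA and no GGGCGG on either strand, and Bmp8b and Inhbb each held 1 GGGCGG and no TATAAA. Over 32851 windows of the same length, 12.4% held TATAAA and 32.7% held GGGCGG. The GC content was 65.2% for Bmp8b, 43.2% for Inhba and 68.0% for Inhbb, against a median of 52.4% over all windows. The other motifs searched on both strands were the E-box CACGTG, the full cAMP response element TGACGTCA and a direct repeat of nuclear receptor sites with 1 base between. None of them was in these 3 windows, and they stood in 6.02%, 1.55% and 0.0335% of all windows. Windows were matched for 6 of the 10 members.

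Without overlap, 8 of the 10 members were higher in Myf5 GFP-positive mammary cells than in Myf5 BAT (33.1% of all genes). In GFP-negative mammary cells over BAT 6 were (19.4%), and in Ucp1 GFP-positive mammary cells over Ucp1 BAT 3 were (16.6%). Bmp8b was read in brown fat alone, and Bmp4 was also lower in Ucp1 GFP-positive mammary cells than in Ucp1 BAT. Per kilobase, Tgfb1 led in Ucp1 GFP-positive mammary cells at 35.2 ± 18.2 CPM per kilobase and Tgfb3 led in Myf5 GFP-positive mammary cells at 34.1 ± 13.8 (SD, n = 2 each). Tgfb3 also had the highest mean in both GFP-negative groups, at 22.8 ± 0.228 in the Ucp1 line and 9.06 ± 3.85 in the Myf5 line (SD, n = 2 each). In BAT, Bmp8b had the highest mean, at 10.8 ± 7.82 CPM per kilobase in the Ucp1 line and 21.8 ± 4.61 in the Myf5 line (SD, n = 2 each). Bmp8b made up 23.0% and 61.8% of the summed level of the 10 genes in the Ucp1 BAT libraries and 91.8% and 92.5% in the Myf5 BAT libraries. In replicate 1 of Ucp1 BAT, Tgfb1 was above it, at 6.10 CPM per kilobase against 5.28 for Bmp8b.

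**Figure D1:**
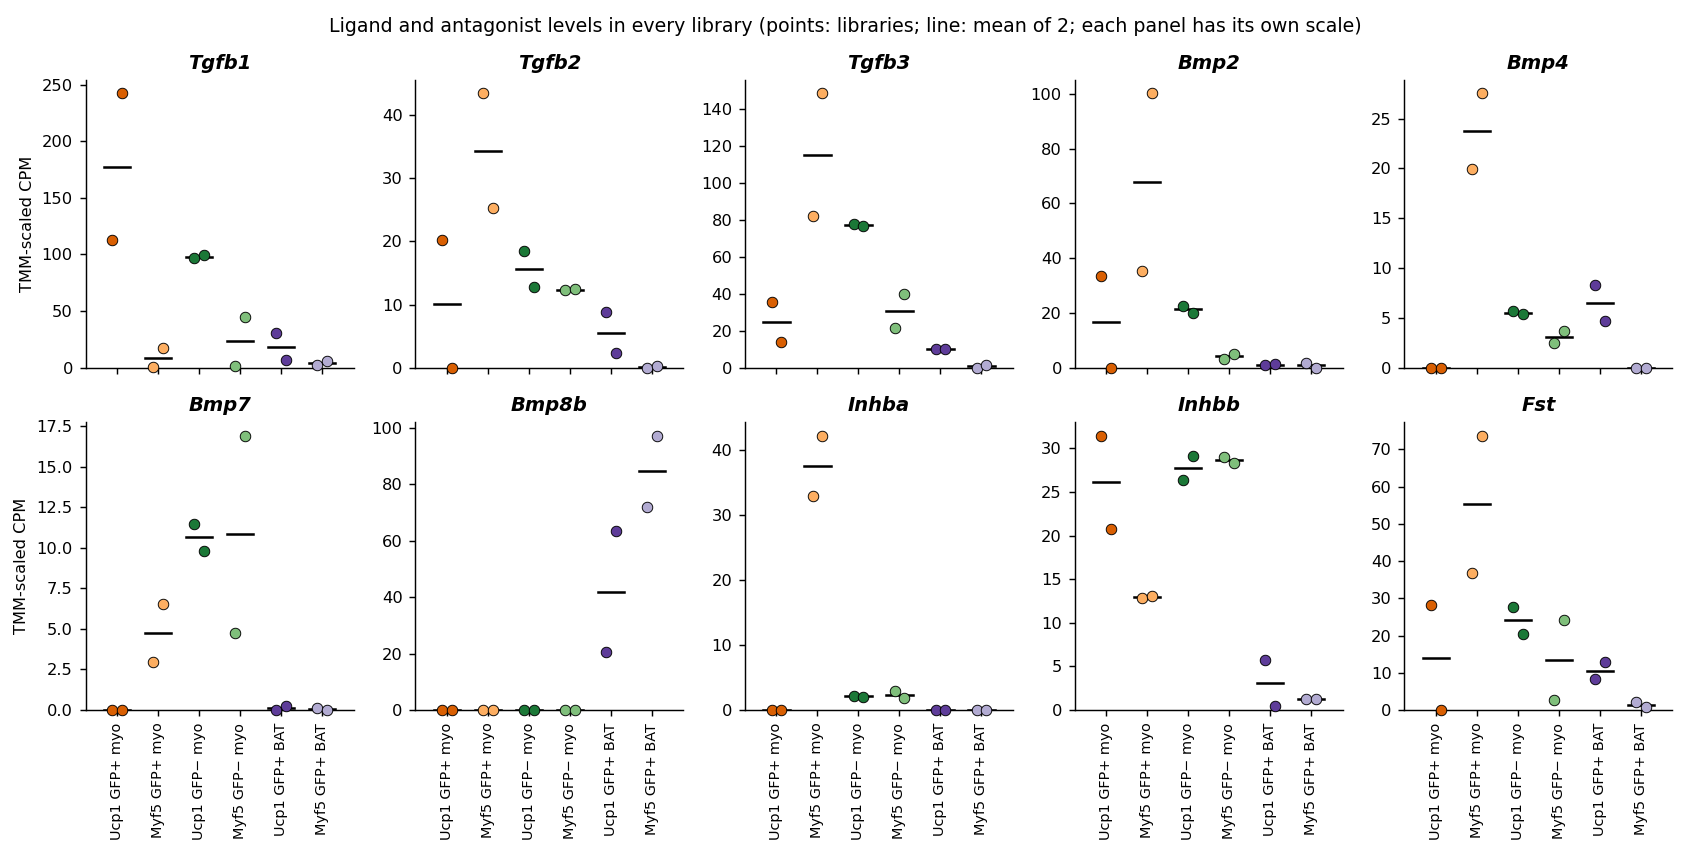
TMM-scaled CPM (y axis, a scale per panel) of the 10 genes in 6 groups (x axis); points are libraries and lines the means of 2. Bmp8b is at 0 in all 8 mammary libraries and at 20.5 to 97.2 CPM in BAT, and Inhba is at 32.9 and 42.2 CPM in Myf5 GFP-positive mammary cells (myo) and at 2.97 CPM or less elsewhere.

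Among the TGF-betas, Tgfb1, the form made by most tissues, stood at 113 and 242 CPM in Ucp1 GFP-positive mammary cells and at 96.8 and 99.1 CPM in Ucp1 GFP-negative cells. In the Myf5 line it was at 0.436 and 17.0 CPM with GFP and at 1.82 and 45.0 CPM without. Both replicate 1 libraries of the Myf5 line were thus far below replicate 2, by more than in 97.9% of genes at 5 CPM or more in the GFP-positive group and 99.7% in the GFP-negative group. BAT had 30.8 and 6.38 CPM in the Ucp1 line and 2.08 and 5.59 CPM in the Myf5 line.

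Tgfb3, a form prominent in mesenchyme and in the involuting mammary gland, was at 35.3 and 14.0 CPM in Ucp1 GFP-positive and 82.1 and 148 CPM in Myf5 GFP-positive mammary cells. GFP-negative cells had 77.6 and 76.5 CPM in the Ucp1 line and 21.4 and 39.9 CPM in the Myf5 line. The GFP-positive groups therefore lay on opposite sides of their own GFP-negative groups, without overlap in either line. Ucp1 BAT held 10.1 and 10.1 CPM and Myf5 BAT 0 and 1.28 CPM. Tgfb2 was at 20.2 and 0 CPM in Ucp1 GFP-positive and 43.4 and 25.3 CPM in Myf5 GFP-positive mammary cells. It had 18.5 and 12.8 CPM in Ucp1 GFP-negative and 12.3 and 12.4 CPM in Myf5 GFP-negative cells. In BAT it reached 8.82 and 2.30 CPM in the Ucp1 line and 0 and 0.275 CPM in the Myf5 line, below every mammary library with reads.

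Tgfb1 and Tgfb3 shared the lead among the TGF-betas. Per kilobase, Tgfb1 made up 61.6% and 92.1% of the TGF-beta sum in Ucp1 GFP-positive mammary cells, against 42.4% and 44.2% in Ucp1 GFP-negative cells. Tgfb3 made up 76.2% and 85.0% in Myf5 GFP-positive mammary cells, against 71.8% and 51.6% in Myf5 GFP-negative cells. The TGF-beta sum was 8.82 to 52.2 CPM per kilobase in mammary libraries, against 10.6 and 4.65 in Ucp1 BAT and 0.412 and 1.54 in Myf5 BAT.

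Of the BMPs, Bmp2, a strong inducer of Smad1 and Smad5, was at 33.4 and 0 CPM in Ucp1 GFP-positive and 35.5 and 100 CPM in Myf5 GFP-positive mammary cells. GFP-negative cells had 22.5 and 20 CPM in the Ucp1 line and 3.28 and 4.90 CPM in the Myf5 line. Both Myf5 GFP-positive libraries lay above both of their GFP-negative ones, and Ucp1 GFP-positive replicates lay on either side of theirs. BAT held 0.840 and 1.36 CPM in the Ucp1 line and 1.71 and 0 CPM in the Myf5 line. Bmp4, which in mesenchymal precursors promotes the adipocyte fate, had no count in Ucp1 GFP-positive mammary cells and was at 19.9 and 27.5 CPM in Myf5 GFP-positive ones. It stood at 5.65 and 5.35 CPM in Ucp1 GFP-negative and 2.49 and 3.68 CPM in Myf5 GFP-negative cells. In BAT, Bmp4 was at 8.30 and 4.68 CPM in the Ucp1 line, with no count in the Myf5 line. The mean of Bmp4 was thus lower in GFP-positive mammary cells than in BAT in the Ucp1 line and higher in the Myf5 line.

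Bmp7, which drives brown fat differentiation in mouse precursors, was near 0 in BAT, with 0 and 0.255 CPM in the Ucp1 line and 0.122 and 0 CPM in the Myf5 line (3 counts and 1 count in all). Mammary cells without GFP had 11.5 and 9.82 CPM in the Ucp1 line and 4.75 and 16.9 CPM in the Myf5 line. GFP-positive mammary cells had no count in the Ucp1 line and 2.99 and 6.51 CPM in the Myf5 line.

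Bmp8b had 20.5 and 63.4 CPM in Ucp1 BAT and 71.9 and 97.2 CPM in Myf5 BAT, from 195 to 1061 counts per library. Its pattern was all or none, with no count in any of the 8 mammary libraries. The neighbouring paralog Bmp8a, which shares 7.03% of the 31-base sequences of Bmp8b, stayed at or below 4.75 CPM in every library. Bmp8b also overlaps Ppie on the opposite strand over 3.4% of its exon bases, and the strand setting of the counting is not given.

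Inhba set the Myf5 GFP-positive mammary cells apart from the other 5 groups. It was at 0 in both Ucp1 GFP-positive libraries and at 32.9 and 42.2 CPM in Myf5 GFP-positive ones, with 2.16 and 2.02 CPM in Ucp1 GFP-negative and 2.97 and 1.78 CPM in Myf5 GFP-negative cells. BAT had no count in any of 4 libraries. Inhbb was read in all 12 libraries, at 31.5 and 20.7 CPM in Ucp1 GFP-positive and 12.8 and 13.1 CPM in Myf5 GFP-positive libraries. GFP-negative cells had 26.4 and 29.1 CPM in the Ucp1 line and 29.0 and 28.3 CPM in the Myf5 line. BAT had 5.78 and 0.510 CPM in the Ucp1 line and 1.22 and 1.28 CPM in the Myf5 line, below all 8 mammary libraries.

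The leading activin subunit differed between groups. Per kilobase, Inhba supplied 63.1% and 68.3% of the subunit sum in Myf5 GFP-positive mammary cells, against 6.39% and 4.02% in Myf5 GFP-negative cells. It supplied 0% in the Ucp1 GFP-positive and all BAT libraries, and 5.17% and 4.41% in Ucp1 GFP-negative cells. Fst, which binds activins, was at 28.2 and 0 CPM in Ucp1 GFP-positive and 36.9 and 73.6 CPM in Myf5 GFP-positive mammary cells. GFP-negative cells had 27.7 and 20.5 CPM in the Ucp1 line and 2.80 and 24.1 CPM in the Myf5 line. In BAT, Fst was at 8.30 and 12.8 CPM in the Ucp1 line and 2.08 and 0.824 CPM in the Myf5 line. Like Bmp2 and Tgfb2, it was read in replicate 1 and absent in replicate 2 of the Ucp1 GFP-positive mammary cells.

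Set against brown adipocytes of the same line, Myf5 GFP-positive mammary cells had more Tgfb3, Bmp4, Bmp7, Inhba and Inhbb and less Bmp8b. These 6 members passed an adjusted p of 0.05 in the edgeR quasi-likelihood test with Benjamini-Hochberg adjustment over all genes, where 19.8% of the 16953 genes passed (10.9% higher and 8.84% lower). Tgfb3 was higher by 7.43 on the log2 scale (SE 1.35, adjusted p 0.00641) and Inhbb by 3.36 (SE 1.04, adjusted p 0.0492). Bmp4 was at least 151-fold higher (adjusted p 0.00380) and Inhba at least 239-fold higher (adjusted p 0.00547), bounds set by 3 counts in the empty BAT pair. Bmp7 was 100-fold higher with a counting interval of 17.8 to 3971 (adjusted p 0.0471), since BAT held 1 count. Bmp8b was at least 1253-fold lower (adjusted p 0.00536). Bmp7 lost its call without any 1 of the 10 libraries outside the Ucp1 GFP-positive mammary pair (adjusted p 0.0512 to 0.228), and Inhbb without any 1 of the 8 outside that pair and Ucp1 BAT (0.0754 to 0.225). Both also missed the threshold with RLE factors (adjusted p 0.0504 for Bmp7 and 0.0558 for Inhbb) and with no filter on low counts (0.0524 for Bmp7 and 0.0641 for Inhbb). The groups did not overlap for 8 members higher and 1 lower, against 33.1% and 33.8% of all genes. Bmp2 (adjusted p 0.123), Tgfb2 (adjusted p 0.0695) and Fst (adjusted p 0.139) were among the 8 and missed the threshold. All 3 passed when either Ucp1 GFP-positive mammary library was left out of the shared fit. In bulk RNA, fewer cells of a kind and less RNA per cell cannot be told apart. Fibroblast markers also differed here, at a summed 16670 and 8812 CPM in the mammary cells, against 74.2 and 44.5 CPM in Myf5 BAT, and their part in the result was not tested.

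In the Ucp1 line the same contrast called only Bmp4 and Bmp8b, both lower in the GFP-positive mammary cells. There 27.8% of all genes passed, 5.34% higher and 22.5% lower. Bmp4 was at least 148-fold lower (adjusted p 0.00267) and Bmp8b at least 956-fold lower (adjusted p 0.00401) by the edgeR quasi-likelihood test. Inhbb was 3.06 higher on the log2 scale and did not pass (SE 1.01, adjusted p 0.0501). It passed by DESeq2 (adjusted p 0.00223) and limma-voom (adjusted p 0.0121), without either Ucp1 GFP-positive mammary library (0.0486 and 0.0217) and without replicate 1 of Ucp1 BAT (0.0107). Tgfb1, Tgfb3 and Inhbb were higher without overlap, against 16.6% of all genes, and Bmp4 and Bmp8b lower without overlap, against 41.1%. Without replicate 1 of the Ucp1 GFP-positive mammary cells 6 members passed, with Tgfb2, Bmp2 and Fst lower. Without replicate 2 of them 4 passed, with Bmp2 higher.

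GFP-negative mammary cells of both lines, set against BAT of both lines, again had more Tgfb3, Bmp7, Inhba and Inhbb and less Bmp8b. With Bmp4, 6 members passed, where 26.6% of all genes did (14.6% higher and 12% lower). The log2 changes were 4.22 for Tgfb3 (SE 0.824, adjusted p 0.00612) and 3.83 for Inhbb (SE 0.746, adjusted p 0.00607) by the edgeR quasi-likelihood test. Inhba was at least 30.1-fold higher (adjusted p 0.00374) and Bmp8b at least 2386-fold lower (adjusted p 0.00125). Bmp4 (adjusted p 0.0138) and Bmp7 (adjusted p 0.00698) get no fold, because Myf5 BAT held 3 counts or fewer. For Bmp7, Ucp1 BAT did too. For Bmp4 the mean was 4.29 CPM in mammary cells and 3.24 CPM in BAT, and the libraries overlapped, since the call averages the lines on a log scale with Myf5 BAT at 0. That call was lost without either Ucp1 GFP-negative library, either Myf5 BAT library or replicate 2 of Ucp1 BAT (adjusted p 0.0505 to 0.0579). In these 8 libraries Bmp7, Inhba, Inhbb, Tgfb2, Tgfb3 and Bmp2 were higher without overlap, against 19.4% of all genes, and Bmp8b was lower, against 18%.

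**Figure D2:**
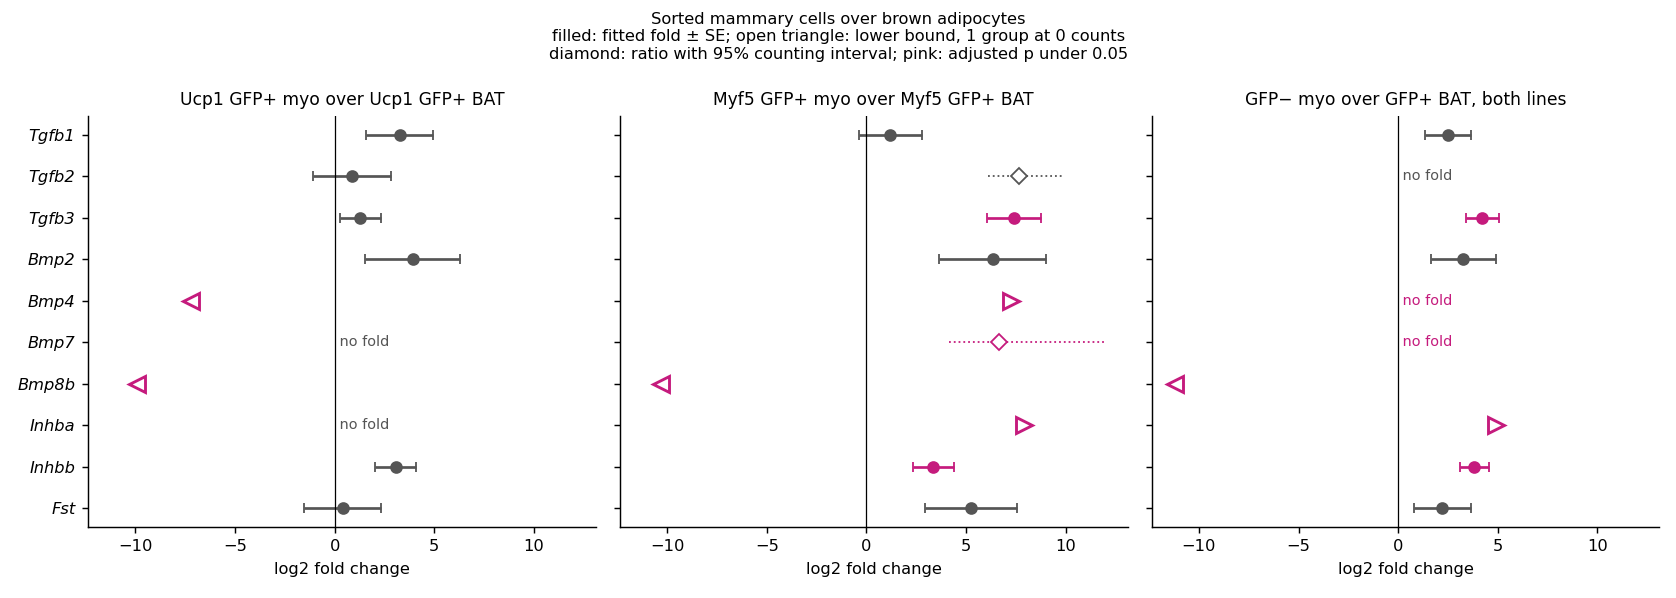
Log2 fold change (x axis) of each gene (y axis) in mammary cells (myo) over BAT in the Ucp1 line, the Myf5 line and for GFP-negative cells of both lines. Filled points are fitted folds ± SE, open triangles lower bounds, diamonds ratios with counting intervals, and pink marks adjusted p under 0.05. Bmp8b lies far left in all 3 panels, and Bmp4 lies left in the Ucp1 line and right in the Myf5 line.

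Within the mammary gland, the GFP label went with fewer reads of Bmp4, Bmp7 and Inhba in the Ucp1 line. All 3 were at 0 in both Ucp1 GFP-positive libraries, against 363, 703 and 138 counts in the GFP-negative pair. Bmp4 was at least 125-fold lower (adjusted p 0.00381), Bmp7 at least 243-fold lower (adjusted p 0.0120) and Inhba at least 47.7-fold lower (adjusted p 0.0100) by the edgeR quasi-likelihood test. In this contrast 14.3% of all genes passed, with 14% of all genes lower and 0.277% higher. Tgfb3 was lower without overlap by 1.65 on the log2 scale and did not pass (SE 1.03, adjusted p 0.328). Without replicate 1 of the GFP-positive cells, Tgfb2, Bmp2 and Fst, which had reads in that library alone, passed as lower too. Of the members, 4 were lower without overlap, against 48.1% of all genes, and Tgfb1 was higher without overlap, against 11.8%. Inhbb was at nearly equal means, 26.1 CPM with GFP and 27.8 CPM without (log2 change -0.09, SE 0.933). The 5 fibroblast markers summed to 599 and 190.5 CPM in Ucp1 GFP-positive cells (3 and 5 detected, Dpt and Pdgfra at 0 in replicate 1), against 2390 and 1875 CPM in Ucp1 GFP-negative cells (5 detected in both). The 6 immune markers summed to 9.74 and 33.0 CPM in GFP-positive cells (2 detected in each, with Ptprc at 0 in both). GFP-negative cells had 206 and 156 CPM (6 detected in both). Luminal markers summed to 95.15 and 221 CPM in GFP-positive and 593 and 554 CPM in GFP-negative cells. Myoepithelial markers summed to 1284 and 2849 CPM in GFP-positive and 9371 and 10660 CPM in GFP-negative cells. Summed milk, pericyte, brown adipocyte and Schwann cell markers were also lower without overlap. Of the brown adipocyte list, Ucp1, Cidea and Dio2 were lower without overlap, and Elovl3, Plin1 and Pparg overlapped. Adipoq was higher without overlap, at 12.54 and 17.02 CPM with GFP and 3.127 and 1.04 CPM without. Cox8b was too, at 4.596 and 3.059 CPM with GFP and 0.5712 and 0.3669 CPM without. Within the pericyte list, Notch3 overlapped. Of the Schwann cell list, only Sox10 had a count with GFP, at 57.98 and 0.02427 CPM. Endothelial markers overlapped, at 3690 and 5338 CPM in GFP-positive and 3705 and 3604 CPM in GFP-negative cells. The part of any of these lists in the result was not tested.

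Many genes at these levels had few or no reads in the Ucp1 GFP-positive libraries. Of genes with a mean of 1 to 5 CPM in Ucp1 GFP-negative cells, the range of Inhba, 54.5% had under 3 counts in both GFP-positive libraries. The share was 34% for genes of 5 to 10 CPM, the range of Bmp4, and 17.6% for genes of 10 to 20 CPM, the range of Bmp7. In the Myf5 line the same shares were 10.3%, 0.939% and 0.372%. Of genes at 20 to 50 CPM, the range of Bmp2 and Fst, 20.5% were under 3 counts in exactly 1 of the Ucp1 GFP-positive libraries.

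**Figure D3:**
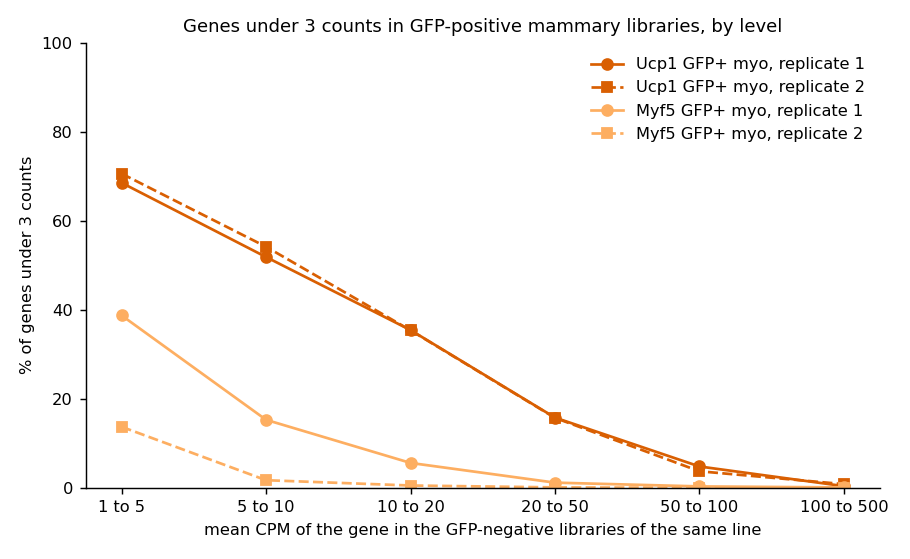
Percent of genes with under 3 counts (y axis) in each GFP-positive mammary library, by the gene's mean CPM in the GFP-negative libraries of the same line (x axis). At 5 to 10 CPM the Ucp1 libraries miss 51.8% and 54.2% of genes, and the Myf5 libraries miss 15.3% and 1.70%.

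In the Myf5 line none of the members passed for the GFP label, and none of the 16953 genes did (0%). At an unadjusted p under 0.05 the edgeR quasi-likelihood test gave 1573 genes, among them Inhba and Bmp4. Inhba averaged 37.6 ± 6.57 CPM in GFP-positive cells and 2.38 ± 0.843 CPM in those without GFP (SD, n = 2 each), a log2 change of 3.98 (SE 1.05, adjusted p 0.339). Bmp4 averaged 23.7 ± 5.37 CPM in GFP-positive cells and 3.08 ± 0.847 CPM in those without GFP (SD, n = 2 each), a log2 change of 2.94 (SE 0.969, adjusted p 0.383). Tgfb2, Tgfb3, Bmp2, Bmp4, Inhba and Fst were higher without overlap, against 14.5% of all genes, and Inhbb was lower without overlap, against 20.2%. The call for these genes depends on the tool. DESeq2 called Bmp4 and Inhba, where it called 724 genes in all. The 5 fibroblast markers summed to 16670 and 8812 CPM in these GFP-positive cells, against 754 and 432 CPM in the GFP-negative cells. Pericyte markers summed to 2667 and 2391 CPM in GFP-positive cells, against 619 and 387 CPM in GFP-negative cells. Endothelial markers were lower, at 815 and 1077 CPM in GFP-positive and 3151 and 3357 CPM in GFP-negative cells. Luminal markers were lower too, at 42.1 and 79.1 CPM in GFP-positive and 475 and 611 CPM in GFP-negative cells. Summed myoepithelial, milk, immune, brown adipocyte and Schwann cell markers were also lower without overlap. Of the brown adipocyte list, Ucp1, Cidea and Pparg were lower without overlap, and Cox8b and Plin1 overlapped. Dio2 was higher without overlap, at 23.4 and 4.15 CPM with GFP and 0 and 0.0809 CPM without. Among immune markers, Lyz2, Adgre1, Cd68 and Cd3e were lower without overlap. Ptprc overlapped, at 18.7 and 4.01 CPM with GFP and 7.06 and 11.9 CPM without. The part of any of these lists in the result was not tested.

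**Figure D4:**
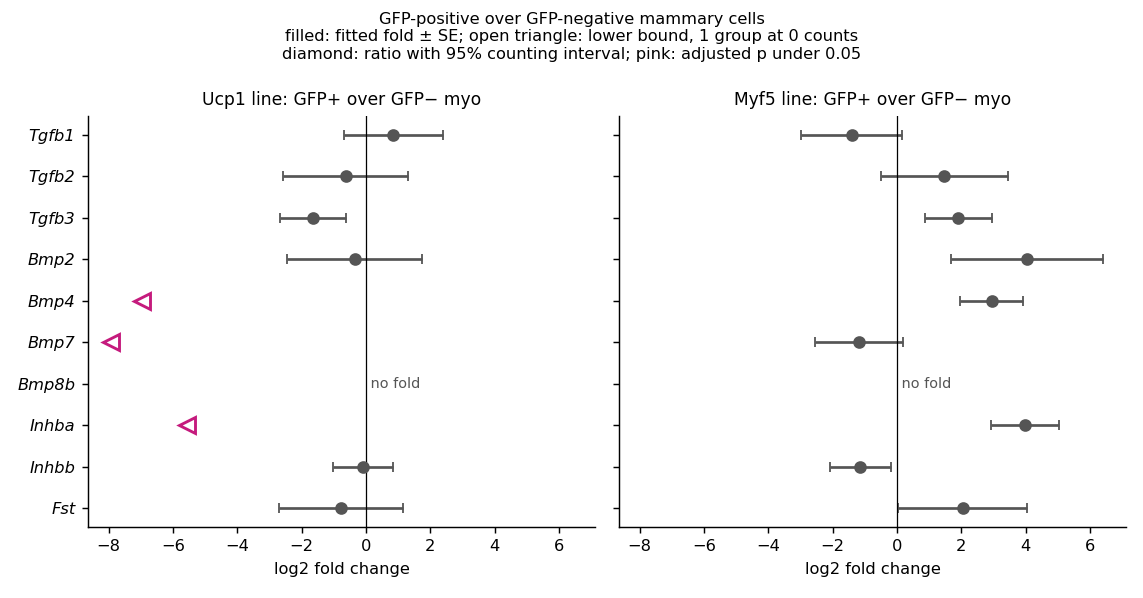
Log2 fold change (x axis) of each gene (y axis) in GFP-positive over GFP-negative mammary cells of the Ucp1 line and the Myf5 line. Filled points are fitted folds ± SE, open triangles lower bounds, and pink marks adjusted p under 0.05. Inhba and Bmp4 lie left in the Ucp1 line and right in the Myf5 line.

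The label effect itself differed between the lines for 3 members. Bmp4 (adjusted p 0.00391), Bmp7 (adjusted p 0.0343) and Inhba (adjusted p 0.00670) had a lower GFP effect in the Ucp1 line than in the Myf5 line by the edgeR interaction test, where 11% of all genes passed, 0.283% higher and 10.7% lower. All 3 rest on the empty Ucp1 GFP-positive pair, so no size is given. Bmp7 lost this call without replicate 2 of the Myf5 GFP-positive cells or any 1 of the 4 GFP-negative libraries (adjusted p 0.0610 to 0.136), and without replicate 1 of the Ucp1 GFP-positive cells 7 members passed. Tgfb3 differed by -3.56 on the log2 scale and did not pass (SE 1.46, adjusted p 0.175).

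Brown adipocytes of the Ucp1 line had more Bmp4 than those of the Myf5 line, at least 41.3-fold (adjusted p 0.0381, edgeR quasi-likelihood test). It was the 1 member called, where 1.32% of all genes passed, 1.29% higher and 0.0236% lower. Bmp4 had 79 and 55 counts in Ucp1 BAT and none in Myf5 BAT. The call was lost without any 1 of the 10 libraries outside the Ucp1 GFP-positive mammary pair (adjusted p 0.0619 to 0.197), and it held without either library of that pair (0.00868 and 0.00893). Tgfb3 was 3.91 higher on the log2 scale and missed the threshold (SE 1.17, adjusted p 0.156). Bmp8b averaged 41.9 ± 30.3 CPM in Ucp1 BAT and 84.6 ± 17.9 CPM in Myf5 BAT (SD, n = 2 each), a log2 change of -1.01 (SE 0.886, adjusted p 0.762). In all, 5 members were higher without overlap and 1 lower, against 31.3% and 28.3% of all genes. The brown adipocyte markers summed to 3297 and 9716 CPM in Ucp1 BAT and to 22460 and 26730 CPM in Myf5 BAT (8 of 8 detected). Endothelial markers summed to 2948 and 1603 CPM in Ucp1 BAT and to 125 and 428 CPM in Myf5 BAT (6 of 6 detected), and pericyte markers to 538 and 346 CPM in Ucp1 BAT and to 102 and 105 CPM in Myf5 BAT (5 of 5 detected). Within the pericyte list, Cspg4 went the other way, at 19.85 and 42.9 CPM in Ucp1 BAT and 92.9 and 56.5 CPM in Myf5 BAT. Rgs5, Pdgfrb, Kcnj8 and Notch3 were each higher in Ucp1 BAT without overlap. Among brown adipocyte markers, Pparg overlapped, at 318 and 436 CPM in Ucp1 BAT and 291.5 and 336 CPM in Myf5 BAT. The others on that list were lower in Ucp1 BAT without overlap. The part of these lists in the Bmp4 difference was not tested.

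GFP-negative mammary cells of the Ucp1 and Myf5 lines gave no call among the members or among all genes (0%), with 604 genes at an unadjusted p under 0.05 in the edgeR quasi-likelihood test and none of them a member. DESeq2 called 43 genes in all. Tgfb1, Tgfb2, Tgfb3, Bmp2 and Bmp4 were higher in the Ucp1 line without overlap, against 30.4% of all genes. Inhbb was at 27.8 CPM in the Ucp1 line and 28.7 CPM in the Myf5 line, and Inhba at 2.09 CPM in the Ucp1 line and 2.38 CPM in the Myf5 line.

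The wider pathway was read through 6 lists with 95 genes found, of which 82 were tested. In Myf5 GFP-positive mammary cells over Myf5 BAT, 25 were called higher and 2 lower (10.9% and 8.84% of all genes). Acvr1c, the type I receptor for activin B and Nodal, was at least 858-fold lower in the mammary cells (adjusted p 0.00582), with 62.5 and 53.2 CPM in Myf5 BAT. Like Bmp8b it was a brown fat transcript in these libraries, at 0.0405 CPM or less in every mammary library and at 7.04 and 18.8 CPM in Ucp1 BAT. Furin, a protease that cleaves ligand precursors, was the other gene called lower (log2 change -2.82, SE 0.628, adjusted p 0.0151), a call lost without replicate 1 of the mammary cells or either Myf5 BAT library (adjusted p 0.05001 to 0.0913). Bmpr2, the type II BMP receptor, was 4.67 higher on the log2 scale (SE 0.622, adjusted p 0.00176), and Bambi, a decoy receptor, 5.06 higher (SE 0.617, adjusted p 0.00124). Id3, a direct target of BMP Smads, was 4 higher (SE 0.550, adjusted p 0.00198). Fstl1, a secreted follistatin-like protein, was 7.71 higher (SE 0.998, adjusted p 0.00160), all by the edgeR quasi-likelihood test. By list, the called genes were 3 of 14 other ligands, 4 of 13 secreted antagonists, 6 of 13 latency and activation genes, 4 of 13 receptors, 5 of 15 Smads and regulators and 5 of 14 target genes.

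In Ucp1 GFP-positive mammary cells over Ucp1 BAT, 10 of the 82 were called higher and 8 lower, where 5.34% of all genes were higher and 22.5% lower. The antagonists Chrdl1 and Nbl1, which bind BMPs, were among the 8. Nbl1 had 2 counts in the mammary pair. In GFP-negative mammary cells over BAT, 31 were called higher and 2 lower, against 14.6% and 12% of all genes. Among the higher were 9 of 15 Smads and regulators. Of these, Bambi, Smad3 and Tgif1 kept their calls in all 12 fits that left out 1 library. Ski and Smurf2 lost theirs in 9 of these fits each, Smad1 in 7, Smad5 in 6, Skil in 5 and Smad7 in 2. Ski, Smurf2, Smad1 and Smad5 also missed the threshold with RLE factors. Bmpr2 was higher in all 3 contrasts, by 3.41 (SE 0.584, adjusted p 0.00339) in the Ucp1 line and 3.57 (SE 0.417, adjusted p 0.000593) in GFP-negative cells. Tgfbr3, the betaglycan co-receptor, was likewise higher in all 3, by 2.50 in the Ucp1 line, 1.78 in the Myf5 line and 2.00 in GFP-negative cells on the log2 scale. Its call in the Myf5 line (adjusted p 0.0282) was lost in 6 of 12 fits that left out 1 library (0.0650 to 0.180) and by limma-voom (0.0738).

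For the GFP label, 9 of the 82 were lower in the Ucp1 line and none higher, where 14% of all genes were lower and 0.277% higher. None passed in the Myf5 line, where no gene at all did (0%). The 9 include Gdf10, Lefty1 and Bmp5 from the list of other ligands and Chrdl1, Nbl1 and Bmper from the list of secreted antagonists. The calls of Lefty1 and Bmp5 were lost without either Ucp1 GFP-negative library (adjusted p 0.0536 to 0.0850), and that of Bmper (adjusted p 0.0453) in 10 of 12 fits that left out 1 library (0.0514 to 0.118). Fbn1, fibrillin, which holds latent TGF-beta complexes in the matrix, was at 1.14 and 0.243 CPM in Ucp1 GFP-positive and 92.5 and 68.3 CPM in Ucp1 GFP-negative mammary cells, a log2 change of -6.87 (SE 1.02, adjusted p 0.00251). Gdf10, a BMP3-like ligand, was at 215 and 300.2 CPM in Myf5 GFP-positive and 8.12 and 5.22 CPM in Myf5 GFP-negative cells, without overlap and without a call. Between the BAT groups 3 genes were called, all higher in the Ucp1 line (1.29% of all genes), namely Id1 and Id3, targets of BMP Smads, and Bambi. Id1 was at 1467 and 549 CPM in Ucp1 BAT and at 51 and 77.5 CPM in Myf5 BAT, a log2 change of 3.97 (SE 0.617, adjusted p 0.0260). Id3 was 3.49 higher (SE 0.537, adjusted p 0.0260) and Bambi 3.65 higher (SE 0.579, adjusted p 0.0275) on that scale by the edgeR quasi-likelihood test. Endothelial markers were also higher in Ucp1 BAT, at 2948 and 1603 CPM against 125 and 428 CPM in Myf5 BAT. Summed pericyte markers were higher there too, though Cspg4 was lower without overlap. Summed brown adipocyte markers were lower, though Pparg overlapped. The part of these lists in the calls of Id1, Id3 and Bambi was not tested. Of 12 fits that left out 1 library, Id1 lost its call in 8 (adjusted p 0.0530 to 0.176) and Id3 and Bambi in 9 each (0.0515 to 0.185), and all 3 lost it by limma-voom (0.0641 to 0.184). No gene at all was called without either Ucp1 GFP-negative library, without replicate 1 of Myf5 BAT or without replicate 1 of Ucp1 BAT.

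**Figure D5:**
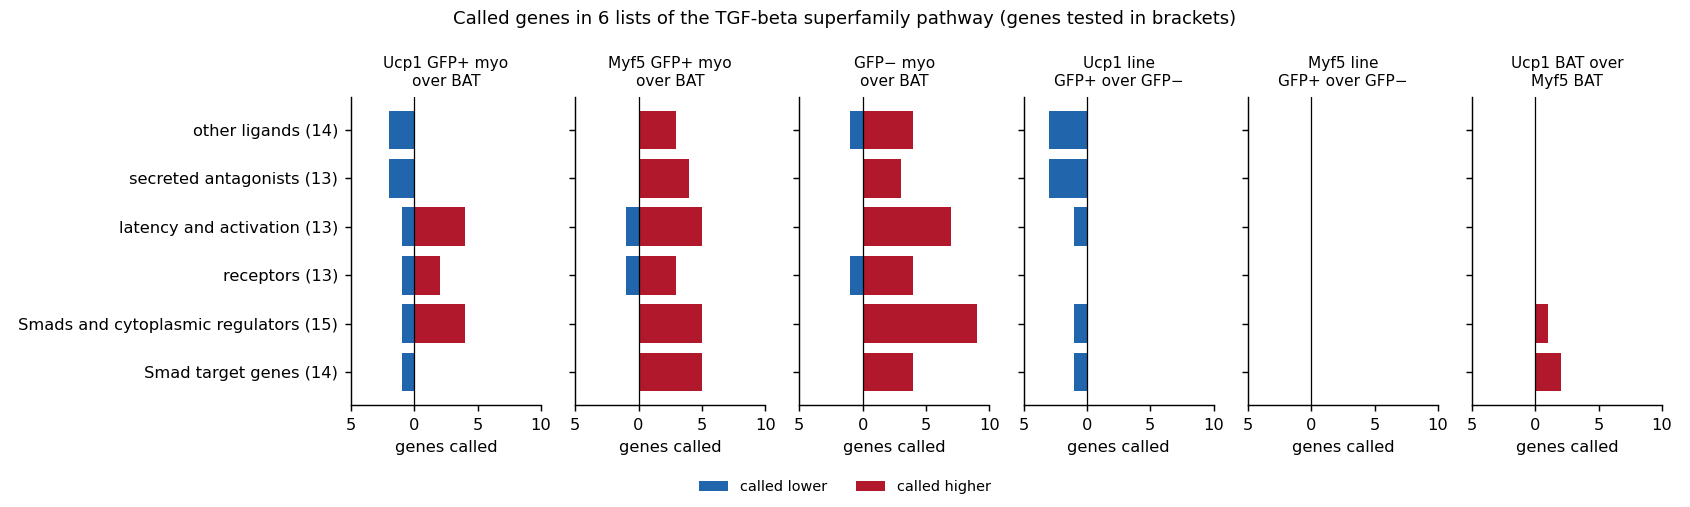
Number of genes called higher (red, right) or lower (blue, left) on the x axis in 6 pathway lists (y axis, genes tested in brackets) for 6 comparisons. Calls in GFP-negative mammary cells over BAT are nearly all higher (31 of 33), and those for the Ucp1 GFP label all lower (9 of 9, as were 2376 of 2423 calls among all genes). The Myf5 label has none, among these or among all 16953 genes.

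Genes with the most similar profile over the 12 libraries were found by the root mean square (RMS) difference of centred log2(CPM + 1) values among 10565 genes. Bmp8b was nearest to Marc1 (RMS 0.188) and Gm26602 (0.222), and Inhba to Epha3 (0.273) and Medag (0.318). Bmp4 was nearest to Sfrp5 (0.432), a secreted Wnt binding protein, and Tgfb3 to Col6a1 (0.501), a chain of collagen VI. For scale, the RMS spread of the gene's own profile was 2.78 for Bmp8b, 1.87 for Inhba, 1.65 for Bmp4 and 2.08 for Tgfb3. Tgfb1 was nearest to Sema4c, at 0.821 against a spread of 2.35 in its own profile. These likenesses are descriptions over 12 libraries that differ in depth and in the number of genes read.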

How the data were processed

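Bulk RNA was measured in 12 libraries of sorted mouse cells, prepared with SMART-Seq v4 and sequenced on an Illumina HiSeq, per the labels' protocols. The authors deposited raw read counts per Ensembl gene for each library. The submitters' processing notes name TopHat, HTSeq, DESeq2 and the build mm10, and for versions, strand setting and annotation the entry is: not given in the sources used here. Every sample column was used (0 left over).

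Symbols, positions and exon lengths came from GENCODE M21 (mm10), which named 37607 of 38924 genes. Groups followed the labels. Counts were tested with the edgeR 4.0.16 quasi-likelihood test (R 4.3.3) in 1 fit of 6 group means over 12 libraries, scaled by TMM. Low genes were removed with filterByExpr at a minimum count of 10, and p-values were adjusted by Benjamini-Hochberg over the 16953 genes left, with a threshold of 0.05. The 8 comparisons were GFP-positive over GFP-negative mammary cells in each line, GFP-positive mammary cells over BAT in each line, GFP-negative mammary cells over BAT, the lines against each other in BAT and in GFP-negative cells, and the difference of the GFP effect between lines. The SE of a log2 change is that change divided by the root of F. Where a group held no count, the fold is a lower bound against 3 counts in that group's pooled total. Where it held 1 to 3 counts, the ratio has an exact counting interval at 95%. Tables were made with pandas 2.3.3 and numpy 2.4.6 under Python 3.11.15, and plots with matplotlib 3.10.9. The test was checked on simulated counts with known changes.

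Alternatives were RLE factors, no filter, DESeq2 1.42.0, limma-voom 3.58.1, the replicate number as a block, library sizes without milk and mitochondrial genes, and leaving out each library or both Ucp1 GFP-positive mammary libraries. Added after seeing the data were a replicate block within the Myf5 mammary libraries and the block with crossed BAT numbers. The members and all lists were chosen with earlier results of these data known. Pathway genes are named by rule, up to 4 called genes of smallest adjusted p per list and comparison, or the 2 of highest mean where none was called. Promoter sequences are RefSeq's (GRCm38.p6).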

Additional observations from a re-analysis of the deposited data

Results flagged for a closer look

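The effect of the GFP label differed between the Ucp1 and Myf5 lines for 3 genes in the edgeR interaction test. The adjusted p was 0.00391 for Bmp4, 0.0343 for Bmp7 and 0.00670 for Inhba. Bmp7 missed the threshold in 5 fits that left out 1 library (0.0610 to 0.136) and with the replicate number as a block (0.0527). All 3 had 0 counts in both Ucp1 GFP-positive mammary libraries, where many genes of their level also lacked reads, and the part of that shortfall in the difference was not tested.

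Bmp4 moved in opposite directions between mammary cells and brown fat in the 2 lines. It was at least 148-fold lower in Ucp1 GFP-positive mammary cells than in Ucp1 BAT, and at least 151-fold higher in Myf5 GFP-positive mammary cells than in Myf5 BAT, without overlap in either line. The Ucp1 bound rests on 0 counts in both Ucp1 GFP-positive mammary libraries, where many genes of this level also lacked reads. The part of that shortfall in the result and the difference between the lines were not tested.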

How the results depend on the processing

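The cause of the changes below was not tested. For the GFP label in the Myf5 line the number of members called was 0, against 2 by DESeq2 (Bmp4 and Inhba), 1 by limma-voom and 1 without both Ucp1 GFP-positive mammary libraries (Inhba in each). Between the BAT groups it was 1, against 2 by DESeq2, 3 without both Ucp1 GFP-positive mammary libraries, and 0 with the replicate number as a block. The labels do not say that equal numbers share an animal, and replicate differences correlated at 0.472 across genes between the Myf5 mammary groups, at -0.109 between the BAT groups and at -0.0858 to 0.114 elsewhere. A block with crossed BAT numbers, added after seeing the data, also gave 0 members. A block within the Myf5 mammary libraries, added likewise, gave 0 members and 0 genes for the Myf5 label. With the replicate block, calls were lost for Bmp4 between the BAT groups (adjusted p 0.0689), Bmp7 in the difference of labels (0.0527) and Bmp7 and Inhbb in Myf5 tissue (0.0772 and 0.0660). Leaving out 1 library gave 0 to 3 members between the BAT groups, 0 to 0 for the Myf5 label and for GFP-negative cells, 3 to 6 for the Ucp1 label, 2 to 7 for the difference of labels, 4 to 9 for Myf5 tissue, 2 to 6 for Ucp1 tissue and 5 to 9 for GFP-negative tissue.

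Over all genes, the Myf5 label had 0 calls, 724 by DESeq2, 567 by limma-voom and 232 without both Ucp1 GFP-positive mammary libraries. The Ucp1 label had 2423, against 4152 by DESeq2 and 5146 by limma-voom, and the difference of labels 1861 against 3096 by DESeq2. Myf5 tissue had 3350, against 5618 by DESeq2 and 6199 without the Ucp1 pair, which gave 6886 against 4515 for GFP-negative tissue. The BAT groups had 223, against 1486 by DESeq2, 42 by limma-voom, 135 with RLE factors, 76 with the block, 154 with the crossed block and 929 without the pair. GFP-negative cells had 0 and 43 by DESeq2. Leaving out 1 library gave 0 to 940 calls between the BAT groups, 0 to 217 for the Myf5 label, 1293 to 4165 for the Ucp1 label, 949 to 3740 for the difference of labels, 1163 to 5867 for Myf5 tissue, 2194 to 6400 for Ucp1 tissue and 2008 to 6822 for GFP-negative tissue.

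Of 1359 alternative log2 changes of members, 1233 kept direction and call, 51 gained a call, 47 lost one and 28 reversed. Log2 changes of Tgfb1 in Myf5 tissue turned to -0.22 under limma-voom, those of Tgfb2, Bmp2 and Fst in Ucp1 tissue to -3.14, -0.775 and -4.11, and that of Bmp7 between GFP-negative cells to 0.22, or 0.25 with the replicate block. Inhbb for the Ucp1 label turned to 0.0941 with RLE factors, 0.0940 with DESeq2, 0.0145 without a filter and 0.0413 without milk and mitochondrial genes. Leaving out 1 library gave, for the Ucp1 label, -11.42 to 0.35 for Tgfb2, -11.86 to 0.64 for Bmp2, -0.43 to 0.17 for Inhbb and -12.04 to 0.21 for Fst. Ucp1 tissue gave -9.91 to 2.13 for Tgfb2, -7.59 to 4.90 for Bmp2 and -10.84 to 1.41 for Fst. For Tgfb1 the ranges were -5.74 to 2.27 (Myf5 label), -3.13 to 2.16 (Myf5 tissue) and -1.43 to 6.58 (difference of labels), and for Bmp7 -1.86 to 0.00476 (Myf5 label) and -0.66 to 1.18 (GFP-negative cells). Between GFP-negative cells they were -0.49 to 0.23 for Inhba and -0.159 to 0.0314 for Inhbb, and between BAT groups -0.63 to 7.70 for Bmp2 and -1.28 to 2.20 for Inhbb. Without replicate 1 of the Ucp1 GFP-positive cells, Tgfb2, Bmp2 and Fst in Ucp1 tissue both reversed and passed the threshold, and no other reversed change passed it. Of 120 CPM values per scaling, 99 moved by no more than the replicate SD with RLE factors and 98 without milk and mitochondrial genes. Depth sets the floors of genes at 0, and 2 libraries per group limit every SE.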
